A study of Mus musculus with 4 samples.

Results

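The clustered histone genes of the mouse were examined in a map of CTCF made from whole testis. CTCF is a DNA-binding zinc-finger protein known for stopping cohesin, so that loops and domain borders form where it is bound. The members were the protein-coding RefSeq genes whose symbol begins with H1f, H2ac, H2bc, H3c or H4c and a number, the current names of the former Hist1h and Hist2h genes. The rule found 67 among 21523 coding genes of the 19 autosomes and chromosome X. Of these, 53 lay on chromosome 13 and 10 on chromosome 3. The other 4, H1f0, H1f7, H1f8 and H1f10, are single linker histone genes outside any cluster, which the rule takes in by name. The series held 2 CTCF-immunoprecipitated samples and 2 input samples, all from testes of F1 mice of a B6 by CAST cross. Frozen testes were thawed in paraformaldehyde and were not sorted, so germ cells and somatic cells were read together.

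One deposited list of 51871 peaks, called merged by its authors, was used. It gives no value per sample, so no error between animals, no replicate check and no test stand behind what follows, and the read depth is unknown. Each peak has a summit, a fold enrichment over background and a −log10 q, all the authors' own values. Counts over histone genes are set beside the same counts over all protein-coding genes as a description.

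Replication-dependent histone genes are short and mostly intronless, and are transcribed when DNA is copied. Their mRNAs end in a stem-loop in place of a poly(A) tail. H2A, H2B, H3 and H4 make up the nucleosome core, and H1 binds the linker DNA between nucleosomes. Many H2A and H2B genes are neighbours read in opposite directions from a shared promoter. Some members are made mainly in the testis: H1f6 encodes the spermatocyte linker histone H1t, H1f7 a linker histone of spermatids, and H2ac1 and H2bc1 encode TH2A and TH2B.

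Promoters of 7 members are shown because a CTCF summit falls inside 6 of them and none falls near the testis gene H2ac1. They run from 250 bases before the start site to 50 bases from it, on the gene's own strand, and come from RefSeq (GRCm38.p6, the mm10 assembly). H2ac19 (chr3:96240325-96240624, minus strand) and H2ac18 (chr3:96245247-96245546, plus strand) are neighbouring H2A copies, and H3c15 (chr3:96239078-96239377, minus) and H3c14 (chr3:96246435-96246734, plus) are the H3 genes beside them. H2ac11 (chr13:22042900-22043199, minus) shares its promoter with H2bc11. H4c6 (chr13:23551619-23551918, minus) encodes H4, and H2ac1 (chr13:23934187-23934486, plus) lies opposite H2bc1. Capitals mark, on either strand and anywhere in the window, CCAAT, the TATA box letters TATAAA, the octamer ATTTGCAT, and letters of the CTCF core. The last are a strict and a looser spelling, and AGNGGGCGC, which was added after the H4c6 sequence was seen.
H2ac19: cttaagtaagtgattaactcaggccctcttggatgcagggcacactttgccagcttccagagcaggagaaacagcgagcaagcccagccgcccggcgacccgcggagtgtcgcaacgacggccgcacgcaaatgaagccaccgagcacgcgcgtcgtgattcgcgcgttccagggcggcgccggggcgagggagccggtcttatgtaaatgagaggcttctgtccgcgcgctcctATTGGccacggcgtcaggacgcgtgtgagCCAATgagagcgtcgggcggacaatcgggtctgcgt
H2ac18: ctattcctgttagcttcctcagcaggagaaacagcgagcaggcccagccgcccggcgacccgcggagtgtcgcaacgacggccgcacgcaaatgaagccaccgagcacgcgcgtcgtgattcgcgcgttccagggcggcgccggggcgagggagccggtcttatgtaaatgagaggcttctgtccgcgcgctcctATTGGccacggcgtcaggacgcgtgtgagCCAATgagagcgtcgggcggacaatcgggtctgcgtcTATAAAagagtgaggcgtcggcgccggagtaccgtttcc
H3c15: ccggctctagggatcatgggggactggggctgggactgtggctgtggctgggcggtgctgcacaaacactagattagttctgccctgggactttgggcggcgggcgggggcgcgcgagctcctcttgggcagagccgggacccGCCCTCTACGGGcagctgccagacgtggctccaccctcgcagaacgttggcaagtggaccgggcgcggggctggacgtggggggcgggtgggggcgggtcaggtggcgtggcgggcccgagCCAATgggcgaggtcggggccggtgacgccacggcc
H3c14: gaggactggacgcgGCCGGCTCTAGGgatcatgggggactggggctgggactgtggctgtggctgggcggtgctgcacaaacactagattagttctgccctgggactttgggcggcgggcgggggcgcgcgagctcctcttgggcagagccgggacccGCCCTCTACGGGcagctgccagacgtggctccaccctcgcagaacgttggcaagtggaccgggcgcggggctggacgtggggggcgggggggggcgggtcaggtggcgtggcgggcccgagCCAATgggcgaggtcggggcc
H2ac11: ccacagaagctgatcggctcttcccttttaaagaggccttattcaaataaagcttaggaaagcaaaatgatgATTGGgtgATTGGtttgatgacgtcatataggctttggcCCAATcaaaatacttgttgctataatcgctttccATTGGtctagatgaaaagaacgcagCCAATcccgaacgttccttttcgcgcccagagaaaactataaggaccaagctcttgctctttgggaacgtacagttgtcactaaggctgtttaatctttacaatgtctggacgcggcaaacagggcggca
H4c6: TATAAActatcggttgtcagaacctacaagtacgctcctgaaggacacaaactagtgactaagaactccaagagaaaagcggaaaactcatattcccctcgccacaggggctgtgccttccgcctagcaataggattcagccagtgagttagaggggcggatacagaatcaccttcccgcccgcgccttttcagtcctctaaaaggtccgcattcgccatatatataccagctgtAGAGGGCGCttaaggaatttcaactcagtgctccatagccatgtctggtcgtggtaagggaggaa
H2ac1: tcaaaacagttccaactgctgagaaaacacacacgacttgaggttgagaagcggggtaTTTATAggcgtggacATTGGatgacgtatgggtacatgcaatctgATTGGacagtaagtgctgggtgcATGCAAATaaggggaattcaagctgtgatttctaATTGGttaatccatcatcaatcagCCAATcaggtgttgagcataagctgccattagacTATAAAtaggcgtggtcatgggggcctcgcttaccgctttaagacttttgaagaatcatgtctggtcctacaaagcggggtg

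A CTCF summit lay within 1 kb of an annotated gene end for 45 of the 67 histone genes, or 67.2%. The share of all protein-coding genes called by this rule was 39.1%. Most histone gene-end peaks had a fold below the list median. Among peaks of fold at least 5, the shares were 26.9% of histone genes and 23.7% of all coding genes. Among peaks with a −log10 q at or above the list median of 29.5, they were 8.96% of histone genes and 17% of all coding genes. The histone genes were thus above the background over all peaks, near it among peaks of fold at least 5, and below it among the peaks of highest confidence.

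The 45 genes took their summits from 38 distinct peaks, because neighbours share peaks. Of the 38 peaks, 22 lay at 1 member, 14 at 2 members and 2 at 3 members. Of the 45 genes, 35 had 1 such summit, 9 had 2, and H2ac21 had 3. The median fold of the 38 peaks was 4.37, from 2.53 to 13.1, and their median −log10 q was 8.01. Peaks at the ends of all coding genes had a median fold of 5.56 and a median −log10 q of 19.9. For all 51871 peaks the medians were 6.82 and 29.5. Only 6 of the 38 histone peaks reached the median fold of the whole list.

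**Figure D1:**
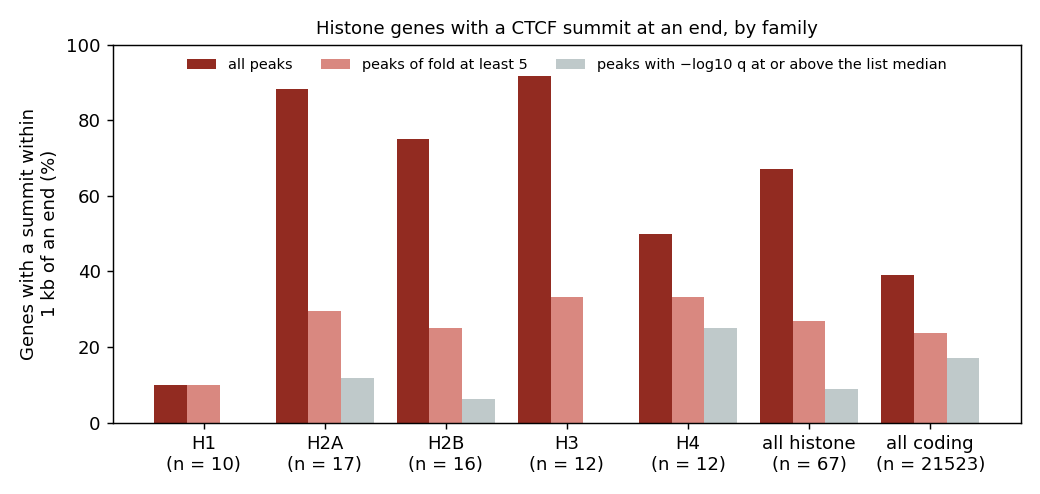
The bars give the percentage of genes with a CTCF summit within 1 kb of an end, for each histone family, for all 67 histone genes and for all 21523 coding genes, with all peaks, with peaks of fold at least 5, and with peaks whose −log10 q reached the list median. With all peaks, histone genes stand at 67.2% and coding genes at 39.1%, and with the strictest set at 8.96% and 17%.

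Gene length bears on these counts, because both windows overlap in a short gene. Among members under 1 kb long, 40 of 58 had a gene-end summit (69.0%). Of the other coding genes under 1 kb, with olfactory and vomeronasal receptors left out, 56 of 402 did (13.9%). Over all 1429 coding genes under 1 kb, receptors and members included, the share called was 7.56%, and over the 460 that are not receptors it was 20.9%. With the start site alone, in the 62 members whose strand was known, 40 had a summit within 1 kb (64.5%), against 37.1% of all coding genes with a known start.

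With all peaks, the families differed in how many members had a summit. Among H3 genes 11 of 12 had one, and among H2A genes 15 of 17. H2B followed with 12 of 16, H4 with 6 of 12 and H1 with 1 of 10, beside 39.1% of all coding genes. This order did not hold with stricter peaks. With a fold of at least 5, the counts were 5 of 17 H2A genes, 4 of 16 H2B genes, 4 of 12 H3 genes, 4 of 12 H4 genes and 1 of 10 H1 genes. Where the −log10 q reached the list median, they were 3 H4 genes, 2 H2A genes, 1 H2B gene, 0 H3 genes and 0 H1 genes. Of all coding genes, 23.7% were called at a fold of at least 5 and 17% at that −log10 q. No test of the differences between families was made, since neighbouring genes share peaks.

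Most H2A genes, which encode a core histone, had a summit within the gene. In 12 of 17 the summit lay inside the gene itself, from 82 to 333 bp past the start site with a median of 220.5 bp, in genes with a median length of 504 bp. The folds of these 12 summits ran from 2.53 to 5.84, with a median of 3.85. The highest were 5.84 at H2ac10 (183 bp past the start), 5.81 at H2ac13 (244 bp) and 5.26 at H2ac7 (262 bp). H2ac21 on chromosome 3 had the lowest, 2.53 at 82 bp. Between them lay H2ac23 at 4.47, H2ac6 at 4.17, H2ac22 at 3.91, H2ac4 and H2ac24 both at 3.8, H2ac12 at 3.74, H2ac20 at 3.7 and H2ac8 at 3.67. Each was therefore below the list median of 6.82.

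The other 5 H2A genes had no summit inside the gene. At H2ac19 and H2ac18 the summits lay 21 and 112 bp before the start, with the higher folds of 8.68 and 8.63. The annotated starts of these near copies lie 40 bases apart along their shared sequence, so distances from a start depend on the annotation. At H2ac11 the summit lay 33 bp before the start with a fold of 4.64, in the promoter shared with H2bc11. H2ac15 and the testis gene H2ac1 had no summit within 1 kb, and their nearest lay 19.1 and 3.15 kb away.

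A summit inside the gene is uncommon among short coding genes. One was found in 19 of 58 histone genes under 1 kb (32.8%). Among the other coding genes of that length, receptors left out, it was found in 23 of 402 (5.72%). Over all coding genes under 1 kb the share called was 3.29%, and over those that are not receptors 9.13%. Over coding genes of any length the share was 53.1%. The histone coding sequences beyond the first 50 bases were not analysed here, so the letters under these summits were not examined.

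H2B genes, the partners of H2A, mostly had their nearest summit on the H2A side. Of the 12 H2B genes with a gene-end summit, 10 had their nearest summit inside an adjoining H2A gene or H2A pseudogene, 349 to 523 bp from the H2B end. In 2 of these, H2bc14 and H2bc3, the adjoining copy is the pseudogene H2ac14 or H2ac5-ps, with folds of 5.11 and 4.54. H2bc11 had its nearest summit in the shared promoter (216 bp before its start, fold 4.64) and a second one of fold 5.28. H2bc18 had its summit inside the H3 gene H3c13, 896 bp away. H2bc13 also had a summit of fold 7.27 and −log10 q 57.3 downstream of the gene, the highest fold in the family. The only H2B gene with a summit inside it was H2bc6, annotated over a long span, whose inside summit of fold 6.9 lay 14.5 kb from the nearer end. H2bc6, H2bc9, H2bc15 and the testis gene H2bc1 had no gene-end summit.

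Among members with a known strand, 9 pairs of H2A and H2B genes ran apart from start sites 164 to 281 bp apart (median 180 bp). A summit lay inside the H2A gene in 6 of the 9 pairs, between the starts in 1, and inside the H2B gene in 0. The pairs without any were H2ac15 with H2bc15 and the testis pair H2ac1 with H2bc1.

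**Figure D2:**
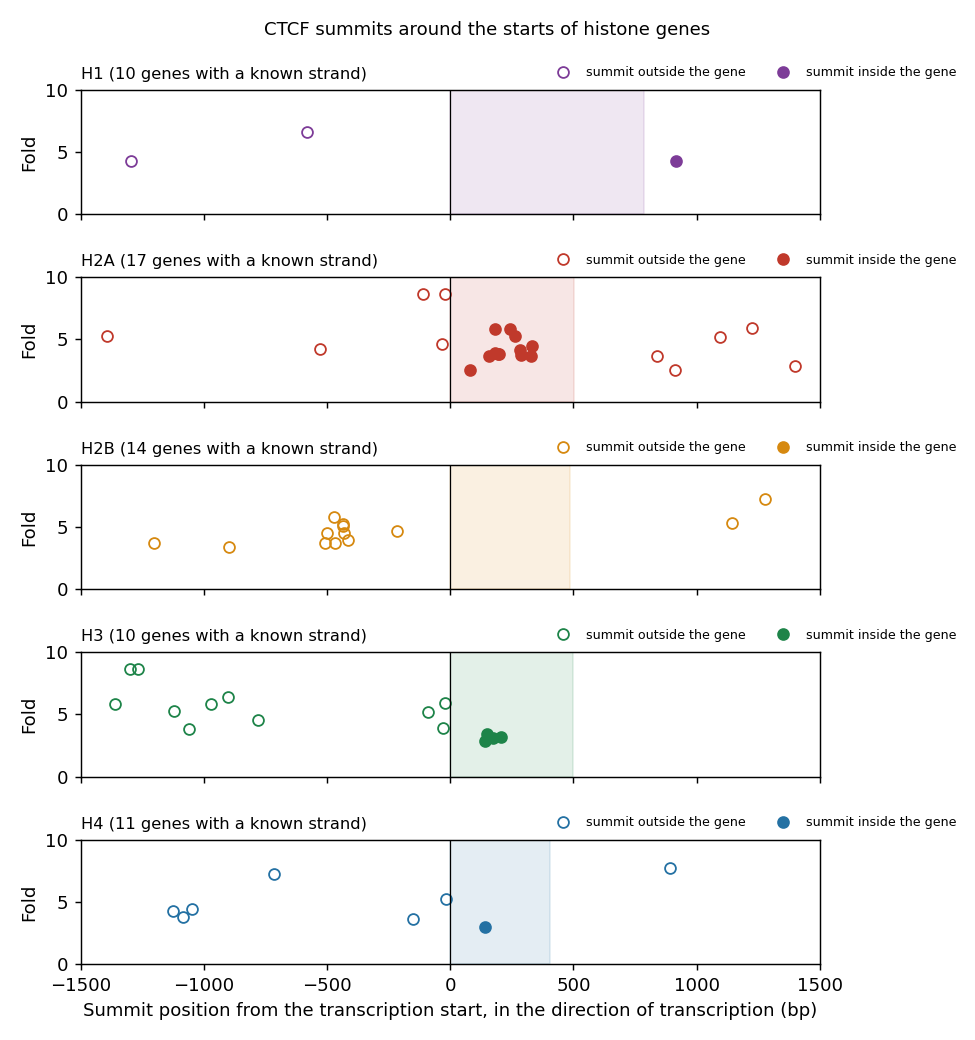
Each point is a CTCF summit within 1500 bp of the start site of a histone gene with a known strand, placed by its distance from the start in the direction of transcription (bp) and by its fold, one panel per family. The shaded span is the family's median gene length. The 12 filled H2A points sit 82 to 333 bp past the start, and the H2B points lie before the start, except 2 at 1143 and 1277 bp past it.

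H3 genes also had summits within the gene. In H3c2, H3c13, H3c4 and H3c6 the summits lay 143, 150, 173 and 205 bp past the start, with folds of 2.84, 3.39, 3.09 and 3.21. H3c7 and H3c1, whose strand was not known, had inside folds of 3.74 and 4.27. At H3c15, H3c14 and H3c8 the summits lay 23, 92 and 28 bp before the start, with folds of 5.88, 5.21 and 3.87. H3c6 had a second summit near an end with the family's highest fold, 6.43. H3c10 and H3c3 had their summits 972 and 782 bp away, inside the H2A gene H2ac13 and the pseudogene H2ac5-ps. H3c11 had none, with the nearest at 3.67 kb.

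H4 genes included the member with the highest fold, and 4 of their 6 genes with a summit had one of fold at least 5. That was 4 of 12 H4 genes, the same as for H3 genes. Of all coding genes, 8409 had a gene-end summit and 5108 (23.7%) had one of fold at least 5. H4c14 on chromosome 3 had a summit 197 bp from an end at fold 13.1 (−log10 q 51.8). H4c3 and H4c11 followed on chromosome 13 with 7.73 at 517 bp and 7.22 at 715 bp. H4c6 had 5.27 at 16 bp before its start, H4c1 had 3.67 at 152 bp before it, and H4c9 had 3 at 141 bp inside the gene. The 6 H4 genes without one were H4c2, H4c4, H4c8, H4c12, H4c17 and H4c18, with nearest summits 1.05 to 15.8 kb away.

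The linker histone genes of the cluster had no gene-end summit, in 0 of 6. Of other coding genes under 1 kb, receptors left out, 13.9% had one, and of all coding genes 39.1%. The summits nearest these 6 linker genes lay at 1022 bp for the testis gene H1f6, 1294 bp for H1f1 and 3.35 kb for H1f3. They lay at 6.13 kb for H1f2, 6.44 kb for H1f5 and 8.27 kb for H1f4. H1f6 fell just past the 1 kb limit and shares its neighbouring summit, of fold 7.73, with H4c3. H3c10, at 972 bp, fell just inside the limit. Of all 10 H1 genes, 3 were called with a 2.5 kb window and 2 by peak overlap, where the main rule called 1. Outside the clusters, H1f10, a somatic linker histone gene on chromosome 6, had summits of fold 6.61 and 4.23, and H1f0, H1f7 and H1f8 had their nearest summits 8.55, 58.6 and 12.4 kb away.

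The testis members H1f6, H1f7, H2ac1 and H2bc1 had no gene-end summit, where 39.1% of all coding genes had one. All but H1f7 are under 1 kb long, and of other coding genes of that length, receptors left out, 13.9% had one. H1f6 missed the limit narrowly, at 1022 bp from a summit of fold 7.73 (−log10 q 52.1). No other linker gene of the cluster had a gene-end summit, and neither did H2ac15 and H2bc15, so the absence is not particular to testis genes. Most genes of the families of H2ac1 and H2bc1 did have one, 15 of 17 H2A and 12 of 16 H2B genes. The summit nearest H2bc1 and H2ac1 was 2.44 and 3.15 kb away and weak, at fold 2.94 (−log10 q 4.36). This is not a measure of their expression, which the peak list does not hold.

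The promoter letters were compared with the summits. A promoter was found for 62 of 67 members, 63 windows in all, because H2bc6 has 2. CCAAT was in 82.5% of histone windows, against 37.6% of 32619 promoter windows. TATAAA was in 54.0% against 13.7%, counted anywhere in the window on either strand. Its matches on the gene's own strand began from 250 bases before the start (H4c6) to 41 bases past it (H4c1). A count of these letters is therefore not a count of TATA boxes. The octamer ATTTGCAT was in 20.6% against 1.75%, with 6 of 17 H2A windows, 7 of 15 H2B windows and no other family. CCAAT was in all 17 H2A, all 15 H2B and all 10 H3 windows, but in only 3 of 11 H4 windows. These windows are not independent: 18 of the 63 overlap another histone window, each across 1 of the 9 divergent pairs. The 13 octamer matches are 10 distinct sites, 3 of them read in both windows of a pair, and 32 of 108 distinct CCAAT sites and 6 of 33 TATAAA sites lie in more than 1 window.

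The CTCF core letters were rare in these windows. The strict spelling was in 0 of 63 histone windows and in 2.44% of all promoters. The looser spelling, which frees 1 more base, was in 2 histone windows (3.17%), those of H3c15 and H3c14, against 8.67% of all promoters. In H3c14 a match on the opposite strand began 92 bases before the start, where the summit also lies, and another began at position −236 from the start, 144 bp from the summit. In H3c15 the only match began 84 bp from the summit. AGNGGGCGC, a spelling searched after the H4c6 sequence was seen, was in 1 of 63 histone windows, H4c6, and in 2.90% of all promoters. In H4c6 it began 15 bases before the start, 1 bp from the summit. Because the spelling was chosen with this sequence in view, that match is not evidence of a CTCF site. The looser spelling contains the stricter one, and a match is a description of letters, not a measured site.

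A summit fell inside 9 of the 63 windows, so most summits near histone genes lie outside the sequence examined. The 2 chromosome 3 pairs are near copies: over the best ungapped overlap, H2ac19 and H2ac18 were identical at 249 of 260 bases (95.8%) and H3c15 and H3c14 at 284 of 285 (99.6%). Reads from such copies may be placed at either one, so their folds of 8.68 and 8.63, and of 5.88 and 5.21, are uncertain for each copy. Whether reads could be placed uniquely in other histone genes was not examined.

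On chromosome 13 the histone genes span 2.22 Mb, from 21715711 to 23934913. The interval held 52 peaks, or 23.4 per Mb, against 17.3 per Mb on chromosome 13 and 15.2 to 31.8 per Mb over the autosomes. The median distance between neighbouring summits was 10.5 kb, against 18.1 kb over the autosomes and X. Joining members within 100 kb gave 4 blocks. The first block of 17 members, 118 kb long, held 7 peaks. The second, of 5 members within 8.54 kb, held 3. Block 3, of 29 members, 233 kb long, held 21, or 90 per Mb. The fourth, with the testis pair H2ac1 and H2bc1, held none.

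Between blocks 2 and 3, 1.49 Mb held 10 peaks, or 6.72 per Mb. This stretch includes 36 vomeronasal receptor genes and 39 vomeronasal receptor pseudogenes. Its widest steps between neighbouring summits were 828 kb and 418 kb, with a single peak of fold 5.07 at 22879464 between them. Per Mb, block 3 therefore held more summits than this receptor-rich stretch.

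**Figure D3:**
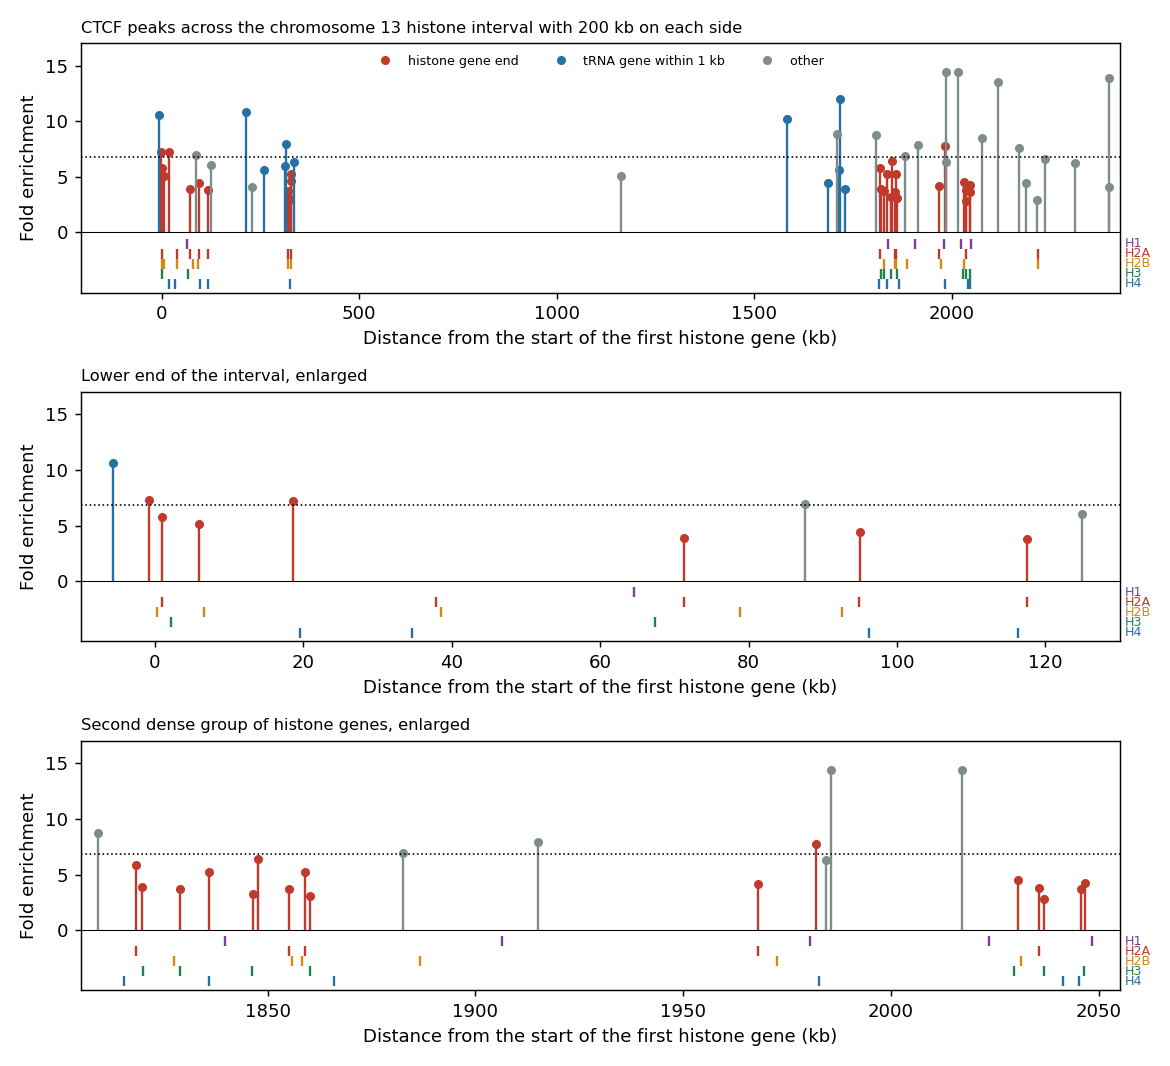
Each stem is a CTCF peak of chromosome 13, placed by distance from the start of the first histone gene (kb) and drawn to its fold. The whole interval is above, with the 2 largest groups of histone genes enlarged beneath. Colour shows whether the summit lies at a histone gene end, near a tRNA gene or elsewhere. Ticks below mark the histone genes by family, and the dotted line is the median fold of all peaks, 6.82. Within the interval, 2 of 26 histone gene-end peaks and 14 of the 26 others reach the line.

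The stronger peaks of the interval lay away from histone gene ends. The 26 peaks at histone gene ends had a median fold of 4.22 (2.84 to 7.73) and a median −log10 q of 7.72. The other 26 had a median fold of 6.94 (2.94 to 14.4) and a median −log10 q of 44.5. Of the 26 histone peaks 9 had a fold of 5 or more (34.6%), as did 21 of the 26 others (80.8%). The share was 71.9% of all peaks in the list and 57.2% of peaks at the ends of all coding genes. Of the 26 others, 10 had a tRNA gene within 1 kb, with a median fold of 6.19.

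**Figure D4:**
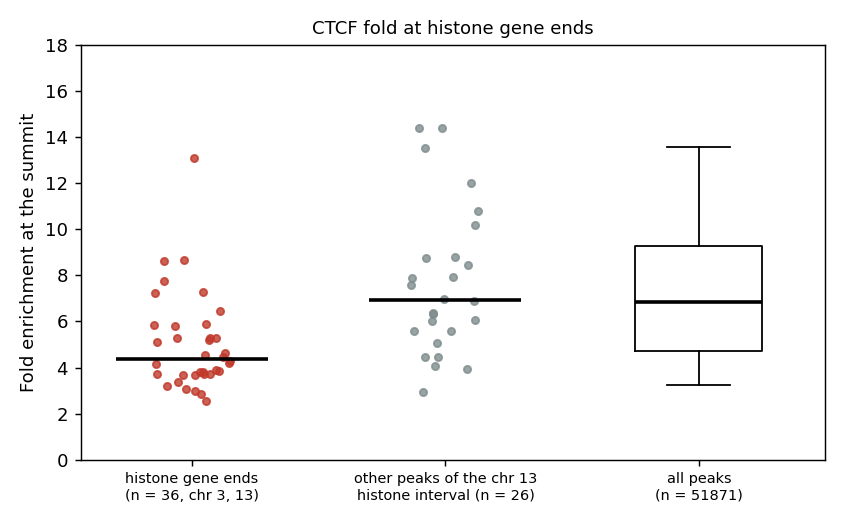
Points are the folds of 36 peaks at histone gene ends on chromosomes 3 and 13 and of the 26 other peaks of the chromosome 13 interval, with a bar at each median. The box gives the quartiles of all 51871 peaks, with whiskers at the 5th and 95th percentiles. The medians are 4.37, 6.94 and 6.82.

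None of the 10 peaks of highest fold in the interval and its 200 kb flanks lay at a histone gene end. The first, of fold 14.4 at 23701364, was 670 bp from Hfe, which encodes a regulator of iron uptake. It was 2.91 kb from H4c3. The second, also of fold 14.4, at 23732675, lay 2.45 kb from the pseudogene Gm11338 and 6.13 kb before the start of the linker gene H1f2. A summit of fold 13.9 lay inside Carmil1, which encodes a regulator of actin capping, 178 kb past H2ac1. A summit of fold 13.5 lay 3.74 kb from Slc17a3, which encodes a transporter. Peaks of fold 12, 10.8 and 10.6 lay 301, 815 and 488 bp from tRNA genes, and one of fold 10.2 lay inside the noncoding RNA gene 4930557F10Rik and 819 bp from a tRNA gene. The last of the 10 had folds of 8.81, 749 bp from Abt1, and 8.77, 1.56 kb from the noncoding RNA gene Gm11335. The latter was 6.23 kb from H4c8.

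The flanks differed in density. The lower 200 kb held 2 peaks (10 per Mb), both within 6 kb of H2bc13, with folds of 10.6 and 7.27. The upper 200 kb held 4 (20 per Mb), with folds of 4.07 to 13.9, against 17.3 per Mb on chromosome 13. Of 77 tRNA genes in the interval, 12 had a summit within 1 kb of an end (15.6%), against 26.8% of all 403 tRNA genes.

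On chromosome 3 the histone genes form a compact cluster. All 10 of its genes had a gene-end summit, where 39.1% of all coding genes had one. Their summits came from 9 distinct peaks, 8 of them within the 50.3 kb between the first and last histone gene. The folds of these 8 ran from 2.53 to 13.1, with a median of 5.54. In order along the chromosome the 9 folds were 4.2 and 2.53 at H2ac21 and 3.7 at H2ac20 and H2bc21, then 5.88 at H3c15, 8.68 at H2ac19, 8.63 at H2ac18 and 5.21 at H3c14. The last were 13.1 at H4c14 and 3.39 at H3c13 and H2bc18. The 200 kb before the cluster held 9 other peaks, the highest of fold 15.6 inside Otud7b, and the 200 kb after it held 9, up to a fold of 10.4. Counting every peak, these flanks had 50 and 45 per Mb, against 15.2 per Mb on chromosome 3, so the surroundings were dense in peaks too.

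**Figure D5:**
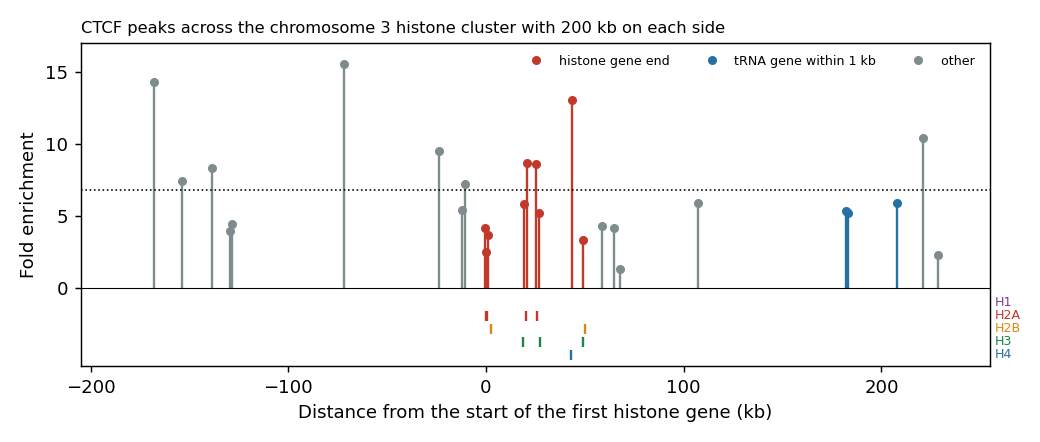
Stems are CTCF peaks around the chromosome 3 histone cluster, placed by distance from the start of its first histone gene (kb) and drawn to their fold, with ticks for the 10 histone genes by family and a dotted line at the list median of 6.82. The 9 red peaks at histone genes run from 2.53 to 13.1, and the tallest stem, 15.6, lies before the cluster.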

How the data were processed

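CTCF ChIP-seq of whole testis was represented by 1 deposited peak list in mm10. Per the submitters' processing notes, BWA 0.7.12 and MACS2 2.2.7 were used; their roles are not stated there. Of the authors' deposited values, the fold enrichment (a ratio) and the −log10 q were used. The summit offset is in bp from the peak start. File and peak names say merged and bio2, so which samples entered is not given in the sources used here. Depth is unknown, and intervals on shares of genes are not given because neighbours share peaks.

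Gene positions came from RefSeq (GRCm38.p6), genes starting below 3 Mb left out, and strand from its promoter table. Summits within 1 kb of a gene start or end were counted with Python 3.11.15 and pandas 2.3.3. The count was tested on simulated data: 200 of 200 planted summits were recovered. Coordinates are 1-based. The members and lists were chosen with earlier results of these data known. The naming rule took members with a gene-end summit, H1f6, H2ac1, H2bc1, and the 10 peaks of highest fold around chromosome 13's cluster; other members were named to account for all. Alternatives were windows of 500 bp and 2.5 kb, stricter peaks, peak overlap and other member sets.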

Additional observations from a re-analysis of the deposited data

How the results depend on the processing

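Wider or narrower windows, peak overlap in place of the summit and other member sets kept the number of histone genes with a gene-end summit between 37 and 51, within 1.5 times of 45. With 500 bp the shares were 55.2% of histone genes and 31.4% of all coding genes, and with 2.5 kb 76.1% and 51.1%. Adding coding genes whose older symbol fits the rule, and keeping members under 1 kb long, were chosen after seeing the data, and gave 47 and 40. Stricter peaks moved most counts. With fold at least 5, the counts were 18 histone genes and 16 distinct peaks, with a median fold of 6.15 where the main value was 4.37, and 16 genes had a start-site summit in place of 40. With a −log10 q at or above the median, 6 genes, 6 peaks, a median fold of 8.18 and 4 start-site genes were counted. The chromosome 13 interval held 30 and 16 peaks under these 2 settings, and 31 in the histone-dense blocks only, each by construction of a smaller set. Flanks of 500 kb held 21 peaks in place of 6, over a longer stretch. Single families moved in 12 of 40 alternatives. Of the 34 alternatives to these results, 22 stayed within 1.5 times or within the median's 95% order-statistic interval over peaks. No paired analysis was possible because the values come from 1 merged list, for which reason no replicate could be left out either. With the depth unknown, weak sites that were missed cannot be counted.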

Other observations

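Histone genes outside the clusters, and genes that make histone mRNA, were also looked at. Of 14 variant and single histone genes, 8 had a gene-end summit (57.1%, against 39.1% of all coding genes), with folds from 2.68 to 6.62 and a median of 5.65. H2ax, whose product marks DNA breaks and the silenced sex chromosomes in meiosis, had 6.34 at 321 bp from an end. H2az1 and H2az2, which encode H2A.Z, had 5.47 and 6.62. H3f3a, an H3.3 gene, had 5.84 at 141 bp, while H3f3b had its nearest summit 1149 bp away with a fold of 7.22. Cenpa, for the centromeric H3, and Hils1, for a spermatid linker histone, had none within 1 kb. H1f0, H1f7, H1f8 and H1f10 are counted here too.

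Of 15 genes for histone mRNA synthesis and 3' end formation, 12 had a gene-end summit (80%, against the same 39.1%), with a median fold of 4.68. Only Slbp, Sympk, Hinfp, Pou2f1 and Ncbp2 had one of fold at least 5, as did 23.7% of all coding genes. The highest were Hinfp, for a factor that binds H4 promoters, with 12.5 at 40 bp, Slbp, for the stem-loop binding protein, with 9.87, and Pou2f1, for an octamer-binding factor, with 9.14 at 4 bp. Npat, for a coactivator of histone genes, had 4.17 at 24 bp. Lsm10, Cpsf2 and Cstf2 had none. Under other current symbols, the former Hist3h2a gene H2aw on chromosome 11 had a summit of fold 6.95 at 246 bp, and H2bu2 and H4f16 had none. H4bc24, an H2B gene by its older symbol, had 3.8 at 462 bp (the summit inside H2ac24).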
